A study of Mus musculus with 5 samples.

Results

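The sarcoplasmic reticulum of a muscle fiber stores the calcium that drives contraction, and 9 genes for its release and uptake were followed here: Ryr1, Ryr3, Trdn, Asph, Casq1, Casq2, Atp2a1, Atp2a2 and Sln. They were chosen by function, as 9 of the 32285 gene rows of each library, and their RNA was summed in myonuclei and in the other nuclei of hindlimb skeletal muscle. The tissue came from Cacna1s-/- mice at E18.5 (Cacna1s KO) and from wild-type (WT) animals at E14.5 (embryonic), E18.5 (fetal), P5 and as adults, with 1 library per group. The study's methods give C57BL/6N for WT mice and name no strain for the KO line. Each library pooled hindlimbs: 26 for the KO, and 56, 14, 8 and 4 for WT E14.5, E18.5, P5 and adult. RNA and open chromatin were read from the same nuclei with the 10x Multiome assay, which counts RNA molecules by unique molecular identifiers (UMIs) and transposase cuts in accessible DNA (ATAC). Nuclei had been sorted by PCM1, a protein of myonuclei, and the positive and negative fractions mixed in equal volumes, so the share of myonuclei in a library was set by the design. The KO is constitutive, so Cacna1s is lost in all tissues.

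In a muscle fiber, an action potential changes the shape of the L-type channel Cav1.1, encoded by Cacna1s, and Cav1.1 opens the release channel RYR1 in the facing membrane of the sarcoplasmic reticulum. Calsequestrin, the calcium buffer inside the store, is tethered near the release channel by triadin and junctin, and the SERCA pumps return calcium to the store between contractions. Several of these proteins exist as a fast and a slow form: SERCA1 (Atp2a1) and CASQ1 belong to fast fibers, SERCA2 (Atp2a2) and CASQ2 to slow fibers and the heart. Fast and slow fibers are told apart by their myosin heavy chain, with Myh7 for slow fibers, Myh2, Myh1 and Myh4 for the adult fast fibers, and Myh3 and Myh8 for embryonic and perinatal fibers.

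A nucleus was called a myonucleus where Ttn, Neb and Trdn together held at least 1.4% of its UMIs (4% in the adult library). This gave 985 myonuclei of 3228 nuclei in the KO, and 1834 of 4812, 1567 of 4261, 1768 of 3747 and 4378 of 5106 nuclei in WT E14.5, E18.5, P5 and adult. Summed myonuclear UMIs ranged from 9929044 to 19652483, and levels are given as UMIs per 1000000 of that sum (CPM). The label held against 20 myonuclear markers outside the rule, which summed to 17129 to 34670 CPM in myonuclei and 1074 to 3101 CPM in other nuclei. At least 3 UMIs of other cell types' markers were carried by 886 of 985 myonuclei in the KO. In WT E14.5, E18.5, P5 and adult they were carried by 1185 of 1834, 1270 of 1567, 1503 of 1768 and 1558 of 4378. Most of these lists were lower in myonuclei than in other nuclei, but not all. Smooth muscle and pericyte markers summed to 425 against 356 CPM at P5, and stem cell and myoblast markers to 538 against 378 CPM at E14.5. Such UMIs therefore do not tell RNA of other cells from the myonuclei's own. Library pairs shared 17 to 47 barcodes. With 1 library per group no test between groups was possible. The 95% intervals in brackets are exact and cover counting error only, and a call means a difference of at least 2-fold, among genes whose 2 sums came to 100 UMIs or more.

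The genes lie apart from each other in the mouse genome (GRCm38). Ryr1 is at chr7:29003344-29125179 on the minus strand, Ryr3 at chr2:112631355-113217096 (minus), Trdn at chr10:33080554-33476709 (plus), Asph at chr4:9448069-9669344 (minus), Casq1 at chr1:172209894-172219868 (minus), Casq2 at chr3:102086415-102146514 (plus), Atp2a1 at chr7:126445858-126463108 (minus), Atp2a2 at chr5:122453513-122502225 (minus) and Sln at chr9:53850164-53854560 (plus). Intronic reads were counted, so levels are compared between genes only per kilobase of gene, which spans 4.40 kb for Sln to 586 kb for Ryr3. That UMIs scale with gene length was not tested, and rankings between genes depend on it. The promoters of Ryr1, Casq1, Casq2 and Atp2a1, from 250 bases before to 50 bases after the start, are shown so that the start-site peaks described further on can be placed on them. Those of Ryr3, Trdn, Asph, Atp2a2 and Sln were not used here. They are RefSeq sequences of GRCm38.p6, 5′ to 3′ on the gene's strand, at chr7:29125102-29125401 (Ryr1), chr1:172219846-172220145 (Casq1), chr3:102086165-102086464 (Casq2) and chr7:126463024-126463323 (Atp2a1). Capitals mark E-boxes (CANNTG), the binding motif of the MyoD family, and a Maf half-site (TGCTGA) on either strand.
Ryr1: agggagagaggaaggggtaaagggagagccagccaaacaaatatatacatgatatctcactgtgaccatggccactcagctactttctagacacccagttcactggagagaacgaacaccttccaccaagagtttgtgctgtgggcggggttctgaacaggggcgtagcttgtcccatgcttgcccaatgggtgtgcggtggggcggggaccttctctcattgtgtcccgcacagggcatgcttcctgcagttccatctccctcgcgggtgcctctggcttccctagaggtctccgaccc
Casq1: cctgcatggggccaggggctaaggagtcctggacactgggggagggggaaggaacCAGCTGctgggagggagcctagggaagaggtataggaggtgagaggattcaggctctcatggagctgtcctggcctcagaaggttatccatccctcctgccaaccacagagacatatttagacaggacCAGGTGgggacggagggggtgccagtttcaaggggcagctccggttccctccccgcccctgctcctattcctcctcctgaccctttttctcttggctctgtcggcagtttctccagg
Casq2: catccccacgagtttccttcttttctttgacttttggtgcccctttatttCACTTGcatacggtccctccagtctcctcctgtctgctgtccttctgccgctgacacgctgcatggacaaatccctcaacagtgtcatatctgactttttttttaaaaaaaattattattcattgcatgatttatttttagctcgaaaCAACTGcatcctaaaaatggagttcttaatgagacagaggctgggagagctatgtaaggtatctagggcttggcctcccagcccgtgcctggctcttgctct
Atp2a1: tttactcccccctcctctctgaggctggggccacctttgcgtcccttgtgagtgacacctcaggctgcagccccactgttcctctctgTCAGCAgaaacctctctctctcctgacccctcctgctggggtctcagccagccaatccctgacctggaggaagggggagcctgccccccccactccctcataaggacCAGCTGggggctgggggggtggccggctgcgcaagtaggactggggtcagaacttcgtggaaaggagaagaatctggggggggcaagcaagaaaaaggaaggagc
E-boxes stood in 3 of the 4 windows: at -195 (CAGCTG) and -67 (CAGGTG) of Casq1, at -200 (CACTTG) and -52 (CAACTG) of Casq2, and at -55 (CAGCTG) of Atp2a1, counted from the start. The Maf half-site stood at -162 of Atp2a1, and the Ryr1 window held neither motif. E-boxes occur in 72.3% and the Maf half-site in 19.5% of 32851 promoters of the same length, so such matches are common. No MEF2-type site (CTANNNNTAG, in 3.69% of promoters) and no MCAT element (CATTCC, in 14.7%) was found in these 4 windows. CACCC boxes, not capitalised, occurred 3 times in the Ryr1 window, once each in those of Casq1 and Atp2a1 and not in that of Casq2, and are in 57.5% of promoters. None of these matches overlap.

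Across WT stages the release channel Ryr1 was higher at each stage than at the one before. Ryr1 was at 816, 1408, 1908 and 3803 CPM in E14.5, E18.5, P5 and adult myonuclei, and the intervals of the 4 libraries did not overlap. Ryr3, the second release channel of young muscle, was at 716, 2010, 2599 and 35.5 CPM. The 2 channels parted in the adult, where Ryr3 was 73.2-fold (67.9 to 79.0) lower than at P5 and Ryr1 1.99-fold (1.96 to 2.02) higher. Not corrected for gene length, Ryr1 made up 53.3%, 41.2%, 42.3% and 99.1% of the UMIs of the pair at the 4 stages. Per kilobase of gene, Ryr1 was above Ryr3 at every stage, with 15.7 against 4.44 CPM per kb at P5 and 31.2 against 0.0606 CPM per kb in the adult. Fewer nuclei held Ryr3 RNA in the adult: after thinning each nucleus to 1000 UMIs, 1.80% of adult myonuclei held a Ryr3 UMI, against 66.4% at P5, while the other nuclei held one in 2.25% and 1.74%. Without thinning the shares in myonuclei were 3.31% and 78.8%, at median depths of 3390 and 6409 UMIs. The adult share of Ryr3-positive myonuclei thus lay at the level of the other nuclei. Those are no baseline without Ryr3, since 5.58% of them held a UMI at E14.5 and 5.97% in the KO, thinned alike.

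**Figure D1:**
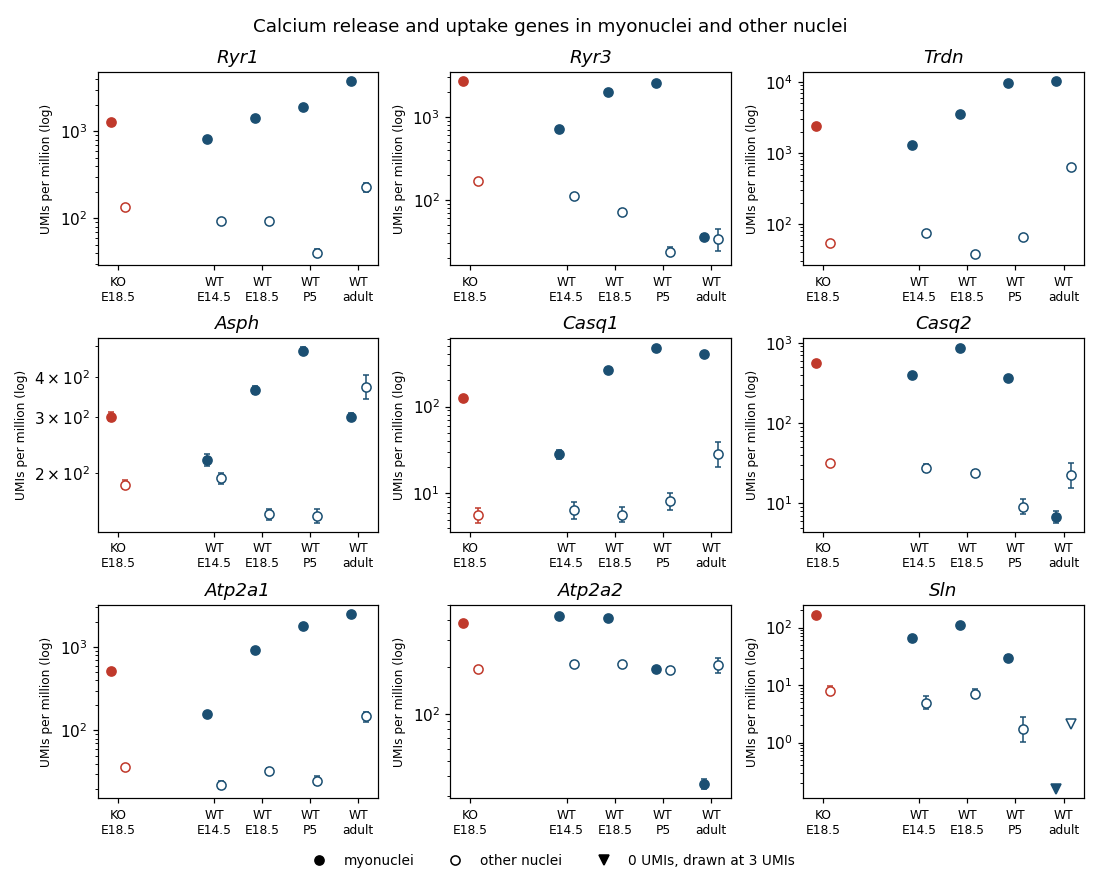
CPM of RNA (UMIs per 1000000, log axis) of each gene in myonuclei (filled) and other nuclei (open) of the KO library (red) and the WT libraries by stage (blue). Bars are exact 95% Poisson intervals and triangles mark sums of 0 drawn at 3 UMIs. Ryr1, Trdn and Atp2a1 climb to the adult, while Ryr3, Casq2, Atp2a2 and Sln are lowest there in myonuclei.

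Of the 2 tethers, triadin (Trdn) was at 1297, 3535, 9589 and 10421 CPM over the same stages. Trdn was also part of the rule that chose the myonuclei, which raises its level there. With Ttn and Neb alone in the rule, Trdn was at 1299, 3556, 9758 and 10437 CPM, so its course over the stages was nearly the same. Among nuclei within 25% of the threshold in the P5 library, Trdn was at 2713 CPM just inside and 2124 CPM just outside it. Asph, whose one gene encodes junctin and the related junctate besides aspartyl beta-hydroxylase, was at 220, 365, 483 and 300.3 CPM, with the highest value at P5. UMIs of the gene as a whole do not tell its products apart. Asph varied least among the 9 genes, with 1.65-fold (1.57 to 1.74) higher levels at E18.5 than at E14.5 and 1.61-fold (1.55 to 1.67) lower levels in the adult than at P5.

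The calsequestrins took different courses. Casq1, the fast form, was at 28.3, 266, 470 and 404 CPM over the 4 stages, and Casq2, the slow and cardiac form, at 395, 864, 367 and 6.82 CPM. Casq1 was the gene that differed most between E18.5 and E14.5, 9.39-fold (8.31 to 10.6) higher at E18.5, and Casq2 was also 2.18-fold (2.11 to 2.27) higher. In the later steps the 2 parted: Casq2 was 2.35-fold (2.27 to 2.43) lower at P5 than at E18.5 and 53.9-fold (45.4 to 64.5) lower in the adult than at P5. Per kilobase of gene, Casq1 was below Casq2 at E14.5, 2.84 against 6.58 CPM per kb, and above it from E18.5 on, 26.6 against 14.4 CPM per kb. Not corrected for length, the share of Casq1 in the UMIs of the pair was 6.68%, 23.5%, 56.1% and 98.3%. In thinned adult myonuclei, 0.661% held a Casq2 UMI, against 28.3% at P5, and 33.7% held a Casq1 UMI, against 37.0% at P5.

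The pumps also parted. Atp2a1, the fast SERCA1, was at 158, 934, 1809 and 2491 CPM, and Atp2a2, the SERCA2 gene, at 428, 414, 194 and 35.4 CPM. Atp2a1 was 5.91-fold (5.61 to 6.24) higher at E18.5 than at E14.5, while Atp2a2 differed by 0.97-fold (0.93 to 1.01), an interval that includes no difference. Atp2a2 was then 2.13-fold (2.03 to 2.24) lower at P5 than at E18.5 and 5.49-fold (5.04 to 5.98) lower in the adult than at P5. Per kilobase of gene, the pumps stood close at E14.5, 9.15 CPM per kb for Atp2a1 and 8.78 for Atp2a2, and Atp2a1 was well above at P5, 105 against 3.99 CPM per kb. Not corrected for length, Atp2a1 held 27.0%, 69.3%, 90.3% and 98.6% of the pair's UMIs. Sarcolipin (Sln), a small peptide that inhibits the SERCA pumps, was at 65.9, 112, 29.9 and 0 CPM. It had 654, 1406 and 371 UMIs at E14.5, E18.5 and P5 and none among 19652483 in adult myonuclei, where 3 UMIs would be 0.153 CPM. From its sum of 0 UMIs, the counting limit put adult Sln at least 159-fold lower than at P5. With the sum set at a floor of 3 UMIs, the ratio was 196. Without myonuclei carrying other cells' markers, the log2 ratio at that floor was -6.73, where it was -7.61 with them. The other nuclei of the adult library held no Sln UMI either.

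Counted over the 9 genes, 5 were at least 2-fold higher at E18.5 than at E14.5 (Casq1, Atp2a1, Ryr3, Trdn and Casq2), beside 13.7% of the 11247 genes compared, and none was 2-fold lower, beside 8.16%. At P5 against E18.5, 1 was higher (Trdn, beside 6.22%) and 3 were lower (Sln, Casq2 and Atp2a2, beside 16.5%). In the adult against P5, none was 2-fold higher (beside 8.39%), with Ryr1 just under that mark, and 4 were lower (Ryr3, Casq2, Atp2a2 and Sln, beside 26.1%). The median log2 ratio of the 9 genes was 1.13, 0.40 and -0.68 in these 3 steps, and that of all genes compared 0.14, -0.32 and -0.25. Trdn, which the rule for myonuclei used, is in these medians and in the upward calls at E18.5 and at P5. At P5 it was the only gene called higher. With Ttn and Neb alone in the rule, its log2 ratios in the 3 steps were 1.45, 1.46 and 0.097. On the scale set to the median of all genes, 3 were higher and 1 was lower at P5 against E18.5. Markers of muscle stem cells and myoblasts were lower at each later stage in myonuclei, with 538, 253, 97.4 and 19.6 CPM summed over 8 genes, all 8 with UMIs in each library. Their part in the lower levels of Casq2, Atp2a2 and Sln was not tested. In the other nuclei that carried mostly this list, at E14.5, Casq2 was at 26.8 CPM, Atp2a2 at 301 CPM and Sln at 10.4 CPM, where the myonuclei of that library held 395, 428 and 65.9 CPM.

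**Figure D2:**
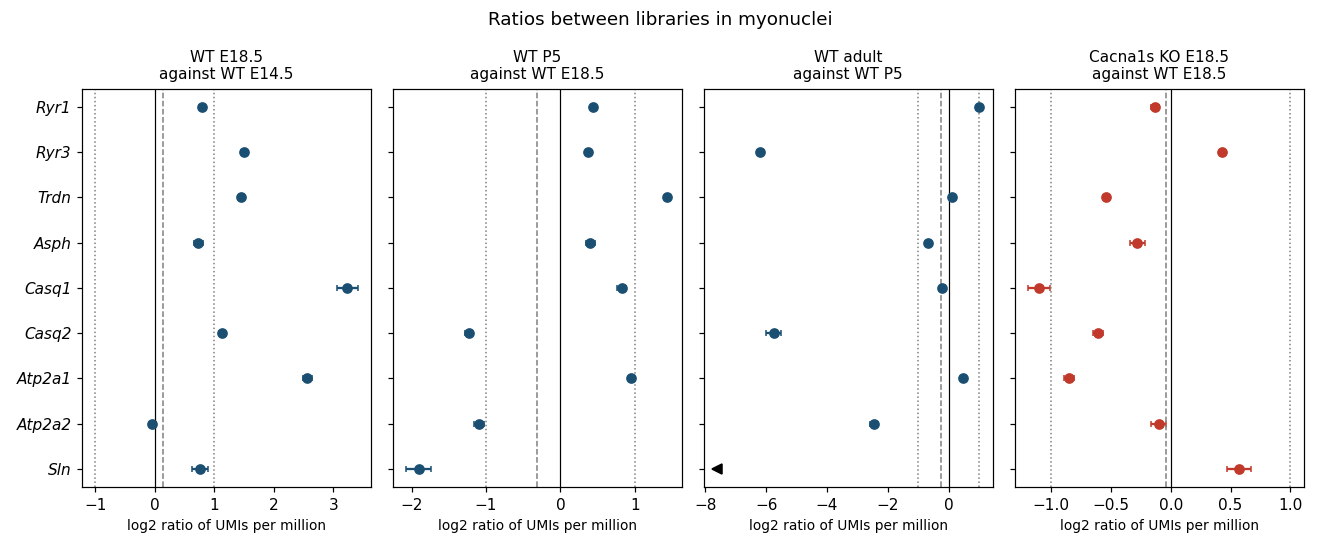
Log2 ratio of RNA CPM in myonuclei for each later WT stage against the one before (blue) and for KO against WT at E18.5 (red), with exact 95% intervals, on axes of different range. Dotted lines mark 2-fold, the dashed line is the median of all genes compared, and the triangle is a bound for Sln, which had 0 UMIs in the adult. The 3 stage steps differ in which genes lie past 2-fold, and Casq1 alone does so in the KO.

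The KO asked what becomes of these genes when Cav1.1 is missing. Cacna1s itself had 8 UMIs in KO myonuclei and 2374 in WT E18.5 myonuclei, 0.724 against 189 CPM, as the genotype label states. Casq1 was at 124 CPM in KO myonuclei and 266 CPM in WT, 2.14-fold (2.01 to 2.29) lower, and was the only one of the 9 genes past 2-fold, beside 3.89% of the 11541 genes compared. Without myonuclei carrying other cells' markers, which left 99 in the KO, 0 of the 9 were 2-fold lower. None was 2-fold higher, beside 3.59%. Atp2a1 was at 518 CPM in the KO and 934 CPM in WT, 1.80-fold (1.75 to 1.86) lower. Casq2 was 1.52-fold (1.48 to 1.57) lower, Trdn 1.45-fold (1.43 to 1.48) lower and Asph 1.21-fold (1.16 to 1.27) lower. The release channel that Cav1.1 opens differed little, since Ryr1 was at 1284 CPM in the KO and 1408 CPM in WT, 1.10-fold (1.07 to 1.12) lower. Ryr3, at 2712 CPM in the KO and 2010 CPM in WT, and Sln, at 166 and 112 CPM, were the 2 genes higher in the KO, 1.35-fold (1.33 to 1.37) and 1.48-fold (1.38 to 1.59).

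In pair shares over all myonuclei, the KO stood between WT E14.5 and WT E18.5 for the pumps and the calsequestrins. Of the UMIs of the SERCA pair, Atp2a1 held 57.3% in KO myonuclei (56.3 to 58.3) and 69.3% in WT E18.5 myonuclei (68.6 to 70.0). Casq1 held 17.9% of its pair in KO nuclei (17.1 to 18.8) and 23.5% in WT nuclei (22.8 to 24.2). The Ryr1 share was 32.1% with the KO (31.7 to 32.6) and 41.2% with WT (40.7 to 41.7), and over all myonuclei the KO value was below that of WT at any stage. Within Myh3 nuclei, given below, it was above that of WT E18.5. Thinned to 1000 UMIs, 11.1% of KO myonuclei held a Casq1 UMI against 21.5% in WT, 38.9% held one of Atp2a1 against 54.0%, and 77.2% held one of Ryr3 against 65.6%. The other nuclei held Casq1 in 0.718% (KO) and 0.377% (WT), Atp2a1 in 3.37% and 2.34%, and Ryr3 in 5.97% and 2.86%. Muscle stem cell and myoblast markers summed to 399 CPM in KO myonuclei and 253 CPM in WT, with 8 of 8 markers detected in both, and mesenchymal markers to 427 and 994 CPM, 7 of 7 in both. Their part in these differences was not tested. KO myonuclei were also deeper, with a median of 10310 UMIs against 6987 in WT.

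Fiber types were read from the Myh gene that held more than 50% of the Myh UMIs of a nucleus, in nuclei with at least 5 of them. Among typed myonuclei, Myh8 nuclei made up 78.0% in the KO and 73.9% in WT E18.5, and Myh3 nuclei 20.8% and 24.1%. Within Myh8 nuclei, 697 in the KO and 1046 in WT, Casq1 was at 155 CPM in the KO and 354 CPM in WT, and Atp2a1 at 629 and 1174 CPM. Within Myh3 nuclei, 186 in the KO and 341 in WT, Casq1 was at 41.8 CPM in the KO and 56.4 CPM in WT, and Atp2a1 at 179 and 317 CPM. Both genes were therefore lower in the KO in either type, Atp2a1 by 0.90 and 0.82 on the log2 scale and Casq1 by 1.20 and 0.43. Casq1 alone was past 2-fold among the 9 genes in Myh8 nuclei, beside 3.90% of all genes lower there, and none was so in Myh3 nuclei, beside 3.39%. None was 2-fold higher in either type, beside 3.70% and 2.23%. Ryr3 went in opposite directions, at 3182 CPM in KO and 2170 CPM in WT Myh8 nuclei, but 1502 CPM in KO and 1774 CPM in WT Myh3 nuclei. Sln was higher in the KO in Myh8 nuclei, 202 against 138 CPM, and its ratio in Myh3 nuclei, 1.15 (0.880 to 1.49), includes no difference.

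**Figure D3:**
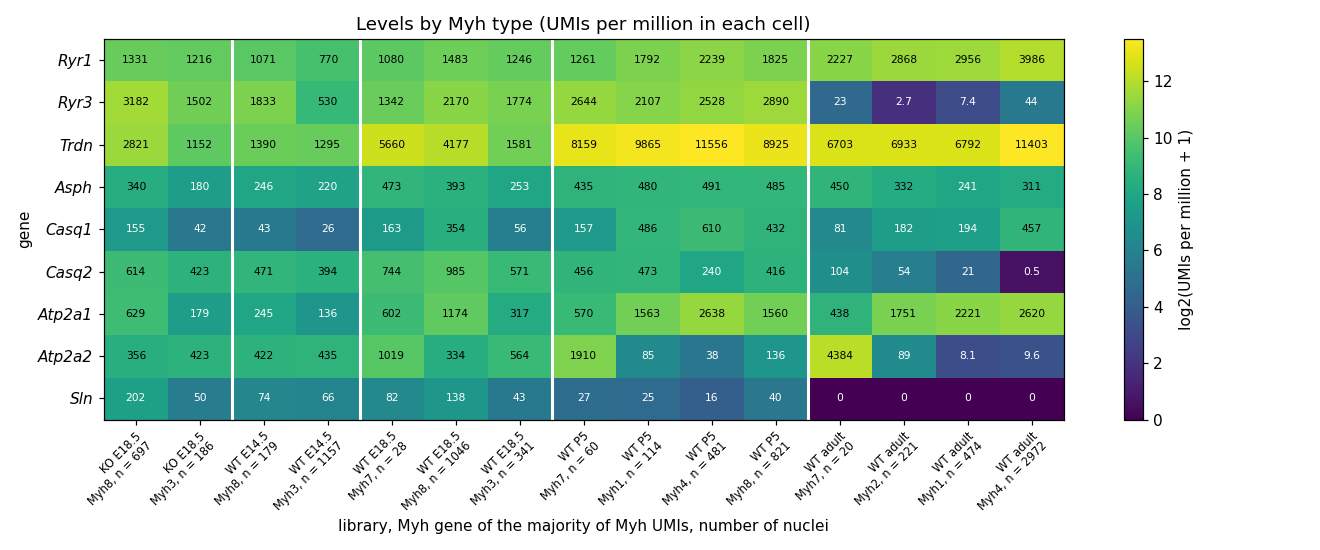
Levels of the 9 genes by library and Myh type, printed as CPM and colored by log2(CPM + 1), with the number of nuclei under each column. Types with at least 20 nuclei are shown. Atp2a2 stands out in the Myh7 columns of P5 and adult, Ryr3 is low in the 4 adult columns, and Casq2 is lowest in adult Myh4 nuclei.

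Within the young libraries, Myh8 nuclei held more of several of the 9 genes than Myh3 nuclei. This contrast was added after the values had been seen. At E18.5 Casq1 was at 354 CPM in Myh8 nuclei and 56.4 CPM in Myh3 nuclei, 6.29-fold (5.36 to 7.42) higher, Atp2a1 3.70-fold (3.46 to 3.97), Sln 3.18-fold (2.64 to 3.86) and Trdn 2.64-fold (2.56 to 2.73) higher. These 4 of 9 stood beside 5.80% of all genes, and none of the 9 was 2-fold lower, beside 3.24%. Atp2a2 went the other way, with 334 CPM in Myh8 and 564 CPM in Myh3 nuclei. At E14.5 only Ryr3 was 2-fold higher, beside 3.08% of genes, and none lower, beside 9.70%. It stood at 1833 CPM in 179 Myh8 nuclei and 530 CPM in 1157 Myh3 nuclei. Ryr3 was thus the gene of the 9 that most set apart Myh8 nuclei at E14.5, and Casq1 the one that did so at E18.5. In the KO 5 of 9 genes were 2-fold higher in Myh8 than Myh3 nuclei (Casq1, Ryr3, Atp2a1, Sln and Trdn), beside 8.39% of genes, and none was lower, beside 4.16%. The counts at E18.5 and in the KO include Trdn, which the rule for myonuclei used.

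At P5, slow nuclei differed from the rest most in Atp2a2. Atp2a2 was at 1910 CPM in 60 Myh7 nuclei and 18.2-fold (16.7 to 19.9) higher than in the other typed myonuclei, the only one of 9 genes past 2-fold upward, beside 5.22% of genes. Atp2a1 was 3.35-fold lower and Casq1 3.15-fold lower in Myh7 nuclei, 2 of 9 beside 13.9%. Casq2, the slow calsequestrin, differed far less than Atp2a2 between these nuclei, with 456 CPM in Myh7 nuclei and a ratio of 1.25 (1.09 to 1.43). At E18.5 Atp2a2 already marked 28 Myh7 nuclei, at 1019 CPM and 2.60-fold (2.27 to 2.97) higher than in the rest, again 1 of 9, beside 6.56%. Myh4 nuclei of P5 differed from the Myh8 nuclei in the same library by more Atp2a1, 2638 against 1560 CPM, and less Atp2a2, 38.3 against 136 CPM. Atp2a2 and Sln were the 2 of 9 genes 2-fold lower there, beside 3.07% of genes, and none was 2-fold higher, beside 0.834%.

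In the adult the slow and fast forms were sorted by fiber type. Atp2a2 was at 4384 CPM in Myh7 nuclei, 88.8 CPM in Myh2, 8.14 CPM in Myh1 and 9.55 CPM in Myh4 nuclei. The Myh7 group was small, with 20 nuclei and 380 Atp2a2 UMIs, yet Atp2a2 was 459-fold (378 to 561) higher there than in 2972 Myh4 nuclei, and Myh1 and Myh4 nuclei did not differ beyond counting error. It was the 1 gene of 7 compared that was 2-fold higher in Myh7 nuclei, beside 26.9% of genes, while Casq1 and Atp2a1 were lower, beside 10.6%. Casq2 formed a gradient, at 104, 54.4, 21.3 and 0.538 CPM in Myh7, Myh2, Myh1 and Myh4 nuclei, from 9, 60, 55 and 8 UMIs. Its neighbours in that order differ beyond counting error except Myh7 and Myh2. Casq1 ran the other way, with 80.8, 182, 194 and 457 CPM, and neighbouring intervals overlapped except between Myh1 and Myh4 nuclei. Ryr1 was 1.35-fold lower in Myh1 than Myh4 nuclei and 1.79-fold lower in Myh7 than Myh4 nuclei.

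The few adult Ryr3 UMIs sat in few nuclei. All 698 came from 145 of 4378 myonuclei, and the 10 nuclei with most, which were Myh4 nuclei, held 317 of them. Myh4 nuclei held 649 of its UMIs, 43.7 CPM, and Myh1 nuclei held 19, 7.37 CPM, 5.92-fold (3.76 to 9.90) lower. At least 1 Ryr3 UMI was seen in 13 of 474 Myh1 nuclei (2.74%) and 111 of 2972 Myh4 nuclei (3.73%). With each nucleus weighted alike the log2 ratio of Myh1 to Myh4 nuclei was -1.80, where the sums gave -2.57, and the interval of the ratio treats UMIs of 1 nucleus as independent. In Myh1 against Myh4 nuclei, Ryr3 and Casq1 were the 2 of 7 genes past 2-fold downward, beside 5.03% of genes, and none was so upward, beside 6.47%. Myh2 nuclei held 3 Ryr3 UMIs, a ratio of 0.0623 (0.0128 to 0.183) against Myh4 nuclei. Ryr3 and Casq1 were again the 2 lower genes in Myh2 against Myh4 nuclei, beside 9.60%, and Atp2a2 the 1 higher, beside 8.58%. In the Myh7 nuclei, Ryr3 rests on 2 UMIs and its ratio to Myh4 nuclei is 0.529 (0.0639 to 1.92). The Ryr1 share of the release channel pair was at least 98.9% in each of the 4 adult types.

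**Figure D4:**
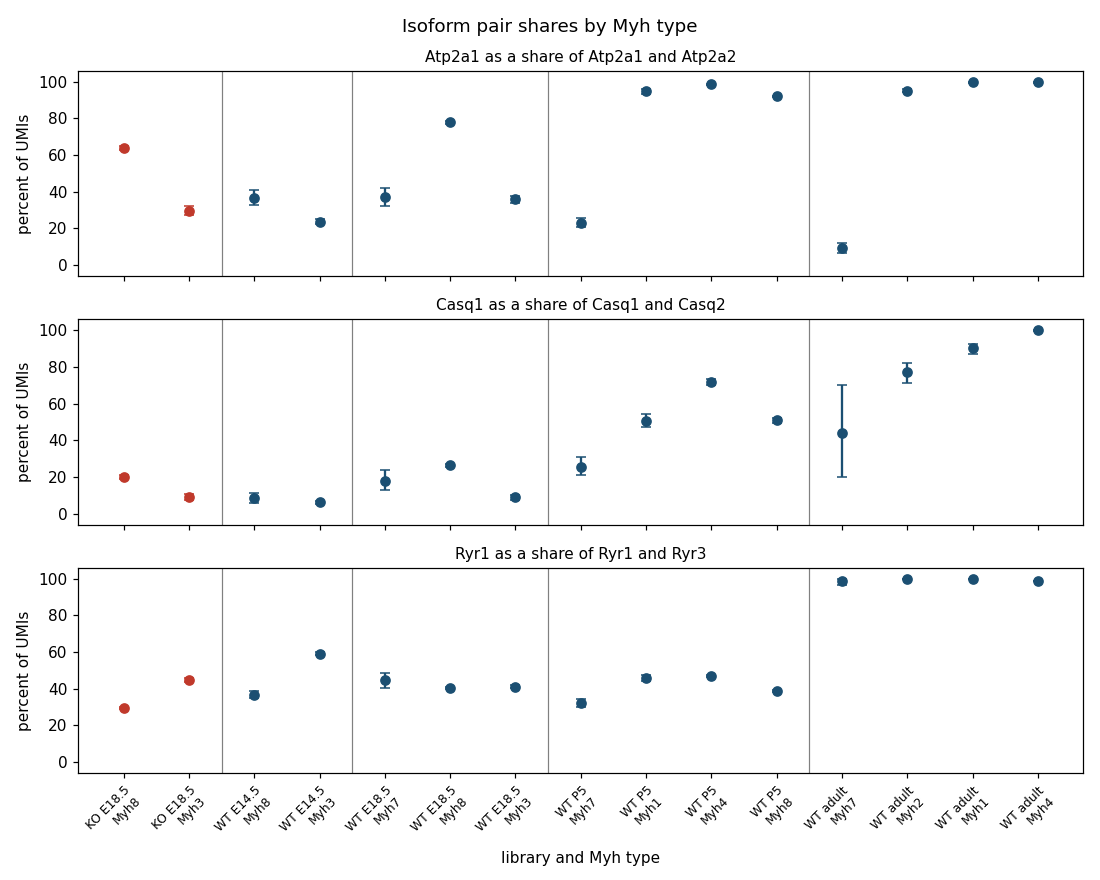
Share of UMIs held by Atp2a1, Casq1 and Ryr1 within each pair of related genes, by library and Myh type (KO red, WT blue), with exact Clopper-Pearson 95% intervals. The Atp2a1 share is lowest in adult Myh7 nuclei (9.09%) and above 90% in the other types of P5 and adult except Myh7 at P5, whereas the Ryr1 share is near 99% in all 4 adult types.

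Up to P5 and in the KO, most of the 9 genes were far lower outside the fiber than in myonuclei, and Atp2a2 and Asph differed less. Adult other nuclei held Trdn at 633 CPM, Ryr1 at 227 CPM and Atp2a1 at 147 CPM, at a median depth of 1228 UMIs. Myonuclear markers summed to 3101 CPM there, and their part in these levels was not tested. Leaving out Trdn, which the rule for myonuclei used, myonuclei were at least 2-fold above other nuclei for 6 of 8 genes in the KO (beside 9.41% of all genes), and 7 of 8 at E14.5 (9.58%), E18.5 (10.9%) and P5 (11.7%). In the adult, 3 of 7 genes were so (14.7%), while Casq2 and Atp2a2 were 2-fold lower in myonuclei (27.5%). Atp2a2 was at 192 to 210 CPM in the other nuclei of all 5 libraries, so at P5, with 194 CPM in myonuclei and 192 CPM in other nuclei, it no longer set myonuclei apart, ratio 1.01 (0.951 to 1.07). SERCA2 is made in most cell types, in a form that these counts do not tell from the muscle one. Other nuclei that carried the smooth muscle and pericyte markers stood out, with Atp2a2 at 403 CPM in the KO and 483 CPM in WT E18.5 and Casq2 at 171 and 107 CPM, where the mesenchymal nuclei of the same libraries held Casq2 at 24.0 and 17.3 CPM. The 20 myonuclear markers summed to 5466 CPM in the smooth muscle and pericyte nuclei of the KO and 3166 CPM in those of WT E18.5, against 1164 and 997 CPM in the mesenchymal nuclei, and their part in these levels was not tested.

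Nuclei of the muscle stem cell and myoblast list carried Ryr1 and Atp2a1 RNA with little Trdn. Ryr1 was at 462 CPM in 397 such nuclei of the KO, and at 348, 599 and 424 CPM at E14.5, E18.5 and P5, against 29.7 to 50.9 CPM in the mesenchymal nuclei of those libraries. Atp2a1 followed, at 107 CPM in the KO and 79.7, 133 and 126 CPM in WT. Trdn stayed at 80.0 CPM in the KO and 42.4, 26.7 and 17.1 CPM in WT, where mesenchymal nuclei held 41.3 CPM in the KO and 46.6, 37.4 and 74.7 CPM in WT. Myonuclear markers were also higher in this group, with 3459 CPM in the KO and 1592, 2906 and 3864 CPM in WT E14.5, E18.5 and P5, against 830 to 1164 CPM in mesenchymal nuclei, and their part was not tested. The rule placed nuclei with much Trdn among the myonuclei, so Trdn in this group is lowered by construction. Ryr3 was at 323 CPM in this group in the KO and 69.3 CPM in WT E18.5. Ryr3 was also higher in the KO in each of the other 4 lists with enough nuclei in both libraries: 97.1 against 48.7 CPM in mesenchymal, 373 against 107 CPM in smooth muscle and pericyte, 66.6 against 8.20 CPM in macrophage and 174 against 1.86 CPM in endothelial nuclei, the last of these from 1 UMI in WT. The myonuclear markers summed to 1979 CPM in the other nuclei of the KO and 1333 CPM in those of WT E18.5, and their part in this was not tested. In the adult, Asph was at 712 CPM in 105 nuclei with adipocyte markers, above the 204 CPM of mesenchymal nuclei and the 300.3 CPM of myonuclei. In the KO, 105 nuclei with adipocyte markers held Asph at 172 CPM, near the 166 CPM of mesenchymal nuclei there.

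Open chromatin at the annotated starts was then set beside the RNA. ATAC counts in peaks within 1 kb of the start were divided by all peak counts of the myonuclei (ATAC CPM, per 1000000). The start of a gene here is the stretch from its first to its last annotated start. For Ryr3 it runs over chr2:113030331-113217087 and for Asph over chr4:9643717-9669344. Their sums take in peaks anywhere between these bases, most of them inside the gene. Peaks had been called in each library apart, so the number and width of peaks differ between libraries. Sums over them do not always cover the same bases. Ratios are therefore given for matched peaks, which shared at least 80% of either peak between 2 libraries. This was chosen after the values had been seen. Ryr1 had 2 peaks at nearly the same place in every library, at 161, 177, 218 and 227 ATAC CPM over the WT stages, one over the promoter printed above and a stronger one just inside the gene. The stronger one held 126 ATAC CPM at E14.5 and 173 in the adult. The start of Ryr1 was thus open in all stages and differed by 1.04-fold (0.977 to 1.11) between adult and P5, where its RNA differed by 1.99-fold. The stretch of Ryr3 starts was at 79.2, 89.0, 110 and 26.8 ATAC CPM, with 6, 7, 8 and 5 peaks. In the 5 peaks matched between adult and P5, the adult held 0.367 (0.323 to 0.419) of the P5 value, 26.8 against 72.9 ATAC CPM. Ryr3 RNA was 73.2-fold lower over the same step.

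Casq2 was at 27.3, 31.1, 42.2 and 10.3 ATAC CPM over the stages, in 1, 1, 2 and 2 peaks. In its 1 peak matched between adult and P5, inside the gene, the adult held 3.08 ATAC CPM and P5 20.2, a ratio of 0.152 (0.110 to 0.210). Sln was at 32.2, 31.3, 15.1 and 5.34 ATAC CPM, in 2, 2, 1 and 1 peaks. The 2 peaks of Sln at E18.5 held 16.6 and 14.7 each, so the lower P5 sum came with 1 called peak fewer. Atp2a1 was at 39.7, 59.7, 49.3 and 117 ATAC CPM, in 1, 2, 1 and 2 peaks. Its peak inside the gene held 44.1 ATAC CPM in the adult and 49.3 at P5, a ratio of 0.894 (0.782 to 1.02), and the other adult peak, over the start, held 72.8 where none was called at P5. That inside peak was 2.28-fold (1.87 to 2.78) higher at P5 than at E18.5. By summed counts, none of 8 members was 2-fold different at E18.5 against E14.5, beside 1.82% of genes higher and 1.88% lower. Sln was lower at P5 against E18.5, beside 1.92%, and none higher, beside 1.14%. In adult against P5 myonuclei, 3 were lower (Ryr3, Casq2 and Sln), beside 8.55% of 14993 genes with start-site peaks, and Atp2a1 was higher, beside 1.73%. The Sln and Atp2a1 calls at P5 against E18.5 and adult against P5 came with a different number of peaks, or for adult Sln with peaks that shared less than 80%, and are not calls on the same bases. Atp2a2 was at 76.6, 76.8, 63.4 and 34.6 in myonuclei and 87.7, 74.0, 79.9 and 74.0 in other nuclei, so its adult counts were lower in myonuclei, while those of other nuclei stayed within 74.0 to 87.7. The adult peak of Atp2a2 in myonuclei, 0.546 (0.481 to 0.622) of the P5 level, remained while its RNA was 5.49-fold lower. No Casq1 peak was called within 1 kb of the start at E14.5 or P5, where 1 peak was called elsewhere in the gene. At E18.5 the peak near the start lay before it, over only the far end of the printed window. Adult Casq1 held 62.2 ATAC CPM in a peak that covers the printed window.

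**Figure D5:**
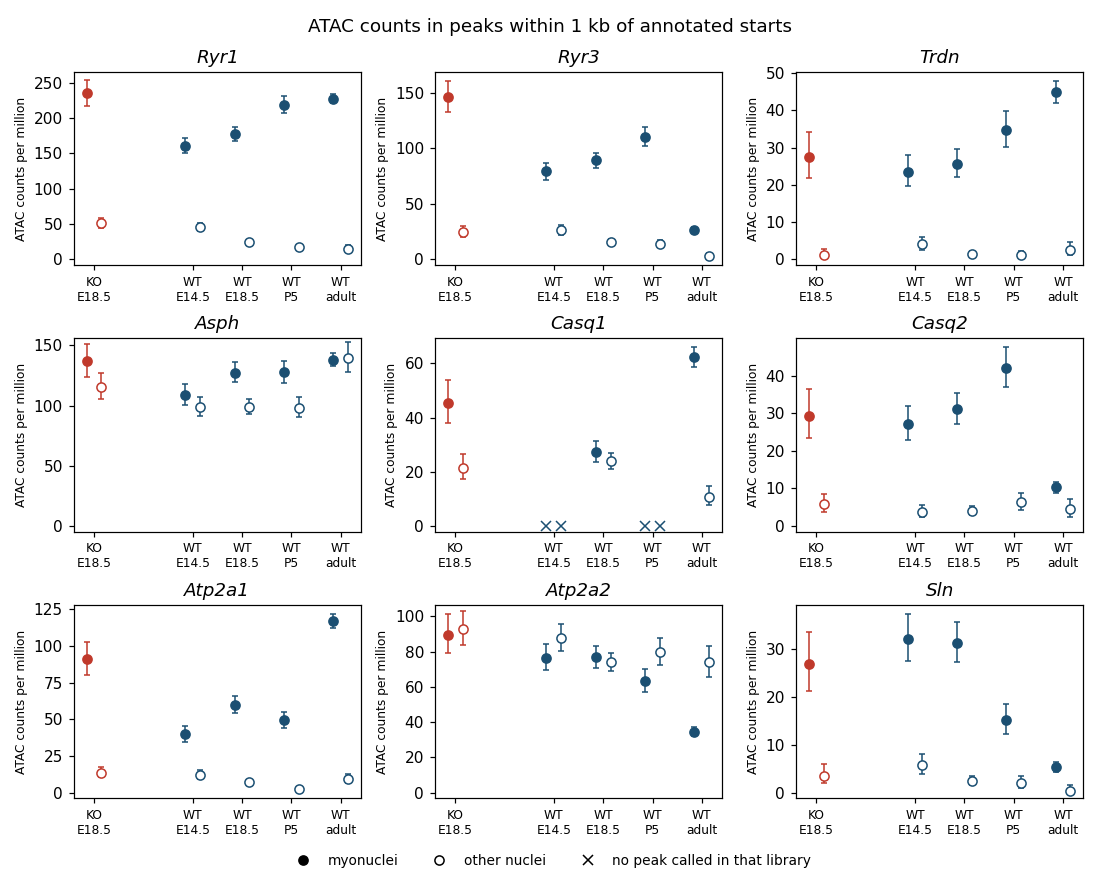
ATAC CPM in peaks within 1 kb of the annotated starts, in myonuclei (filled) and other nuclei (open) of the KO (red) and the WT stages (blue). For Ryr3 and Asph these are peaks anywhere between the first and the last annotated start. Bars are exact 95% Poisson intervals on counts divided by 2, and crosses mark libraries with no called peak. Sums cover the peaks called in each library, so the number and width of peaks differ. In the KO, Atp2a1 lies above WT E18.5 in 2 matched peaks, and the Casq1 peaks of these 2 libraries differ in place and width.

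In the KO, the starts of the fast pump held more ATAC counts than in WT E18.5, while its RNA was lower. Atp2a1 starts held 91.2 ATAC CPM in KO myonuclei and 59.7 in WT E18.5, in 2 matched peaks, 1.53-fold (1.31 to 1.78) higher. The peak over the start was 1.69-fold higher, 64.4 against 38.0 ATAC CPM, with an interval above 1, and the interval of the other peak, 1.24 (0.930 to 1.63), includes no difference. The Casq1 peaks were not matched: the KO peak of 960 bases held 45.5 ATAC CPM and lay over the start, and the WT peak of 673 bases held 27.4 and lay before it, so these are not values of the same bases. Ryr3 was higher in both readouts, with 126 ATAC CPM in KO and 82.2 in WT in 4 matched peaks, 1.53-fold (1.34 to 1.74). These peaks lie over the stretch of its starts, not all at 1 start. Ryr1 starts held 235 in the KO and 177 in WT, in 2 matched peaks, 1.32-fold (1.20 to 1.45) higher. The matched peak of Atp2a2 was 1.17-fold (1.004 to 1.36) higher, 89.6 against 76.8 ATAC CPM. The RNA of Ryr1 and Atp2a2 was 1.10-fold and 1.07-fold lower in the KO, though Atp2a2 was not lower in Myh8 nuclei. Casq2, Trdn and Asph had ratios whose intervals include 1. Sln had 1 peak in the KO and 2 in WT, and its matched peak was 1.62-fold (1.20 to 2.17) higher, 26.8 against 16.6 ATAC CPM. By summed counts, none of the 9 was past 2-fold in either direction, beside 0.469% of 14064 genes higher and 1.77% lower. The median log2 ratio of these start-site counts was 0.22 over the 9 genes and 0.03 over all. KO myonuclei held 5778740 ATAC counts against 14709977 in WT. The part of depth and of peak calling in these higher values was not tested.

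Among 33 other genes of muscle calcium handling (channels, junction proteins, buffers, regulators), 29 had enough UMIs in the KO comparison. Of these, 3 were 2-fold lower in the KO, Cacna1s itself among them, and none higher, beside 3.89% and 3.59% of all genes. On the log2 scale 24 of 29 lay below 0, as did 6261 of all 11541 genes. Cacna1s and Pvalb, the calcium buffer parvalbumin of fast fibers, were the lowest, Pvalb with 2 UMIs in the KO and 104 in WT. Ryr2, the cardiac release channel, was the highest at 11.5 CPM in the KO and 6.60 CPM in WT, with Jph1, a junctophilin that joins the 2 membranes, at 1444 and 1031 CPM. Over the WT stages, 7 of 29 were 2-fold higher at E18.5 than at E14.5 (beside 13.7% of all genes) and none lower (8.16%). At P5 against E18.5, 3 of 30 were higher (6.22%) and 3 lower (16.5%), and in the adult against P5, 3 of 27 were higher (8.39%) and 6 lower (26.1%). Pvalb was at 0, 8.27, 200.3 and 706 CPM over the 4 stages. Itpr3 and Calr, the genes of an inositol trisphosphate receptor and calreticulin, were the lowest of the list at P5 against E18.5, and Mrln, a further SERCA inhibitor, was lowest in the adult, at 13.8 CPM against 87.4 CPM at P5. At E18.5, Itpr1 and Cacna2d1 were the lowest against E14.5, with 134 against 244 CPM and 3062 against 5293 CPM, and Homer1 was among the highest in the adult, 561 against 210 CPM at P5.

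Over the 15 combinations of library and Myh type, some of the 9 genes varied together and others did not. As a description, Pearson's r of log2(CPM + 10) was 0.93 between Atp2a1 and Casq1, 0.87 between Atp2a1 and Trdn, 0.86 between Casq2 and Sln and 0.85 between Casq2 and Ryr3. Ryr1 ran against Casq2, with r = -0.84. Atp2a2 was close to none of the others, with its highest r, 0.59, for Casq2. The combinations share libraries and therefore depth and stage. Of 13474 genes, the 2 most alike in course were Zdbf2 and Sntb1 for Ryr3 (r = 0.97 and 0.97), St3gal6 and Mypn for Trdn (0.97 and 0.97), and Nexn and Shisa4 for Asph (0.93 and 0.92). They were Myoz1 and Pfkfb4 for Casq1 (0.94 and 0.94), Cfl2 and 4632404M16Rik for Casq2 (0.98 and 0.97), Pygm and Bhlhe40 for Atp2a1 (0.98 and 0.95), Tnnt1 and Ube2g2 for Atp2a2 (0.97 and 0.93) and Rplp0 and Ptk7 for Sln (0.97 and 0.97). The annotation places 4632404M16Rik inside an intron of Casq2 on the same strand, so its UMIs and those of Casq2 may not be independent.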

How the data were processed

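The authors mapped reads to mm10 (GRCm38) and counted intronic reads too. The submitters' processing notes name Cell Ranger ARC 2.0.0. The deposited matrices hold raw counts per nucleus: counts of UMIs for 32285 gene rows and counts of transposase cuts for peaks called per library. Peak counts were mostly even (83.1% to 84.5% of nonzero values), so ATAC intervals used counts divided by 2. The handling of reads that match several genes was not given in the sources used here.

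Nuclei were kept with more than 400 and fewer than 25000 UMIs, under 10% mitochondrial UMIs and under 70000 ATAC counts, as in the study's methods, and no doublet caller was run. A figure legend of the study adds a minimum of 400 ATAC counts, tried as an alternative. With or without it, more nuclei were kept in each WT library than the study states (3389 to 4768 with it), and fewer in the KO (2731), whose deposited barcodes are also fewer. Libraries held 21394846 to 49913899 UMIs and 23592784 to 48510096 ATAC counts. UMIs were summed per library and divided by their total. Ratios have exact conditional binomial intervals, levels Poisson and shares Clopper-Pearson intervals, computed with Python 3.11.15, numpy 2.4.6, scipy 1.17.1 and pandas 2.3.3 and tested on simulated data. PCR duplicates are removed by the UMIs, but nuclei of a pool are not replicates. For a sum of 0, 3 counts were used, and no ratio is given where both sums are at most 3. Fiber types needed 20 nuclei. Groups came from the sample titles. Members and gene lists were chosen with earlier results of these data known. Ratios were recomputed under other filters, totals and myonuclear rules. Named genes are the 9 members, Cacna1s, the 2 highest and 2 lowest of the other calcium genes per main comparison, and the 2 genes most like each member, of which those for Ryr1 are not reported here. Protein sequences were not used here.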

Additional observations from a re-analysis of the deposited data

Results flagged for a closer look

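The KO effect differed in direction between fiber types for 2 genes, with both counting intervals off no difference. For Ryr3 the log2 ratio of KO over WT E18.5 was -0.24 in Myh3 nuclei and 0.55 in Myh8 nuclei. For Atp2a2 it was -0.42 in Myh3 nuclei and 0.092 in Myh8 nuclei. Each rests on 1 library per genotype, and the difference between the types was not tested.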

How the results depend on the processing

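No paired analysis was possible because each group has 1 library, and no replicate could be left out. In the 4 main comparisons the 9 genes kept their direction under the alternatives in all but the following cases. Atp2a2 at E18.5 against E14.5, whose interval includes no difference, ranged over -0.43 to 0.079 on the log2 scale. A threshold of 4% in every library, which left 67 myonuclei at E14.5 and 241 in the KO, turned Asph at P5 against E18.5 (-0.024 on the log2 scale), Trdn in adult against P5 (-0.13) and Atp2a2 in KO against WT (0.33), and left 0 genes 2-fold higher at P5 against E18.5. Ratios relative to the median of all genes turned Casq1 in adult against P5 (0.037), and gave 3 genes higher and 1 lower at P5 against E18.5 and 1 higher in the adult. Leaving the most abundant genes out of the total gave 2 higher at P5 against E18.5 and 1 in the adult. The adult count, with Ryr1 at 1.99-fold, was also 1 with no filter on nuclei, with a minimum of ATAC counts and with each nucleus weighted alike. Without myonuclei carrying other cells' markers (99 left in the KO), Trdn in adult against P5 was -0.053, Atp2a2 in KO against WT was 0.30 and 0 genes were 2-fold lower in the KO, as also within Myh3 nuclei. Ryr3 turned within Myh3 nuclei (-0.24) and Atp2a2 within Myh8 nuclei (0.092). With each nucleus weighted alike, 1 gene was 2-fold lower in Myh7 nuclei at E18.5. In ATAC counts, Ryr1 at E18.5 against E14.5 turned with no filter on nuclei (-0.0053), and peaks over the start site itself turned Atp2a1 at E18.5 against E14.5 (-0.064) and Casq2 at P5 against E18.5 (-0.50). Matched peaks alone, chosen after seeing the data, turned the same 2 to the same values, and Atp2a1 at P5 against E18.5 (1.19) and in adult against P5 (-0.16). The cause was not tested. Over all settings that keep both Myh types, Casq1 in KO against WT ranged over -1.29 to -0.94 and Atp2a1 over -0.97 to -0.81. The ATAC depth of the KO and the 20 adult Myh7 nuclei limit what those values show.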
